A study of Mus musculus with 12 samples.

Results

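The genes followed here are 10 markers of T cells and natural killer (NK) cells: the CD3 chain genes Cd3d, Cd3e and Cd3g, the coreceptor genes Cd4 and Cd8a, the kinase genes Lck and Zap70, and the cytotoxic and NK genes Prf1, Nkg7 and Ncr1. They were taken by symbol from RNA-seq of mouse splenic B cells, as a reading of cells other than B cells in those preparations, and are 10 of the 32699 gene names in the table. All 10 passed the filter on low counts and were among the 19125 genes tested. The 12 libraries form 4 groups of 3: B cells labelled KO after 48 hr in culture with 10 µg/ml LPS and 25 ng/ml mouse IL-4 (replicates 10, 11 and 12), unstimulated KO cells at 0 hr (replicates 4, 5 and 6), WT cells after the same 48 hr of stimulation (replicates 7, 8 and 9), and unstimulated WT cells at 0 hr (replicates 1, 2 and 3). KO stands for loss of CHD4, a nucleosome remodelling ATPase. The allele, any Cre driver, the age of the mice and the way the B cells were purified are not given in the sources used here, and nothing says whether replicates came from separate mice, so p-values measure a spread that may be technical. In both genotypes, 7 of the 10 markers (Cd3d, Cd3e, Cd3g, Cd4, Cd8a, Nkg7 and Ncr1) were lower at 48 hr than at 0 hr, where 37.7% of all genes tested were lower in KO and 40.9% in WT. Between libraries labelled KO and WT, Zap70 was higher in KO at 0 hr and Prf1 was higher in KO at 48 hr. Of all genes tested, 0.68% were higher at 0 hr and 1.47% at 48 hr. With 1 library left out, Zap70 was called in 2 of 12 fits and Prf1 in 7 of 12. Xist, a transcript of the inactive X chromosome of females, also separated all KO from all WT libraries. Genotype and this sex difference therefore cannot be told apart. Lck, by far the highest of the 10 per kilobase of transcript, did not pass the test in any comparison.

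T cells read peptide antigen through the T cell receptor, whose signal is carried by the CD3 chains. The coreceptors CD4 and CD8 bind MHC molecules and bring the Src family kinase LCK to the receptor, where it phosphorylates the CD3 and zeta chains so that the kinase ZAP70 can dock. NK cells and cytotoxic T cells kill with granules that hold perforin, and NK cells recognise targets through receptors such as NKp46. In B cells the corresponding receptor signal runs through the CD79 chains and the kinases LYN and SYK. LCK and ZAP70 are also made by some mouse B cells, so these are less strict markers than the CD3 chains.

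The 3 CD3 genes lie together on chromosome 9 in the mm10 build. Cd3g (chr9:44969572-44980431, minus strand) and Cd3d (chr9:44981786-44987339, plus strand) are divergent neighbours whose annotated starts are 1.36 kb apart, and Cd3e (chr9:44998740-45009627, minus strand) lies 11.4 kb beyond Cd3d. Cd4 (chr6:124864692-124888221, minus strand) lies 208 kb from Chd4, the targeted gene, on the same chromosome. Cd8a is at chr6:71373427-71379173, plus strand, and Lck at chr4:129548344-129573641, minus strand. The other members are Zap70 (chr1:36761798-36782818, plus strand), Prf1 (chr10:61297833-61304680, plus strand), Nkg7 (chr7:43437073-43438249, plus strand) and Ncr1 (chr7:4337724-4345164, plus strand). None of the 10 lies on the X chromosome.

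Promoter sequence is shown for the CD3 genes, which moved together over the culture, and for Lck and Prf1, whose changes over time in KO cells did not pass the test. Each line is the 250 bases before a RefSeq start in build GRCm38.p6, 5′ to 3′ on the strand of the gene. Capitals mark matches, on either strand, to AGGAAG (the core bound by ETS factors) and TGTGGT (the core bound by RUNX factors). TATAAA, searched for in the same way, had no match in these 6 windows.
Cd3d promoter (chr9:44981536-44981785, plus strand): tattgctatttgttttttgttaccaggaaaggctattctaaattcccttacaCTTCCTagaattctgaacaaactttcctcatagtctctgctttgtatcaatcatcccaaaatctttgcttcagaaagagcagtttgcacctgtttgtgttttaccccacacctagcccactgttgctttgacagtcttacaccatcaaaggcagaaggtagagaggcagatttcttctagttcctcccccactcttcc
Cd3e promoter (chr9:45009612-45009861, minus strand): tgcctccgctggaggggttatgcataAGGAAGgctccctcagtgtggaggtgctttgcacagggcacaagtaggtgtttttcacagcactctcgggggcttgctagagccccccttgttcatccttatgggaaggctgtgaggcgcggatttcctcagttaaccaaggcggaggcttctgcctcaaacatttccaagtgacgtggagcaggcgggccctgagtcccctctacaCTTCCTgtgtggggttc
Cd3g promoter (chr9:44980432-44980681, minus strand): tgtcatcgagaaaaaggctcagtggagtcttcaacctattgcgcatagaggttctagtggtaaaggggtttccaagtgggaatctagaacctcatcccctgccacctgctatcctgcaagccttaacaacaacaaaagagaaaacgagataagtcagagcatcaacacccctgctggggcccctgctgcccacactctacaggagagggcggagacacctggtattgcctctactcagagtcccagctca
Lck promoter, start 1 (chr4:129573642-129573891, minus strand): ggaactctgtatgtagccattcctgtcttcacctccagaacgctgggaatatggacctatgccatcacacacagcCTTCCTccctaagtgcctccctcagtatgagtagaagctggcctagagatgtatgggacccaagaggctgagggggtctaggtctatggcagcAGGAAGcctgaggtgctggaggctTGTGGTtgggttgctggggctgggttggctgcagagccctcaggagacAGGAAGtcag
Lck promoter, start 2 (chr4:129558373-129558622, minus strand): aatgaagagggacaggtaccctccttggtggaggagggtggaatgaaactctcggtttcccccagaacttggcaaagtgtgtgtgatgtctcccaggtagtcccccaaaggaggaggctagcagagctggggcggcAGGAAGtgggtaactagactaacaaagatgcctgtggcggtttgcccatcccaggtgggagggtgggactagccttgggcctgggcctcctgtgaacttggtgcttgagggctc
Prf1 promoter (chr10:61297586-61297835, plus strand): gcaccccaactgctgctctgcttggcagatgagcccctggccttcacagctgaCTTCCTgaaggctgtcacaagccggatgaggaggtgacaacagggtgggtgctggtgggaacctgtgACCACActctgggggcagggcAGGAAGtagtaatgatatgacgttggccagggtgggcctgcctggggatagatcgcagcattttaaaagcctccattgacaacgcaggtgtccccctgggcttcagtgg

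Among these windows AGGAAG had 1 match in Cd3d, 2 in Cd3e, 3 at Lck start 1, 1 at Lck start 2 and 2 in Prf1, and none in Cd3g. TGTGGT had 1 match each at Lck start 1 and in Prf1. In the member windows not shown, AGGAAG had 1 match at Zap70 start 1, 2 at Zap70 start 2 and 1 in Nkg7. It had none in Cd8a, at Zap70 start 3 or at either Ncr1 start. In those windows TGTGGT had 1 match at Zap70 start 2, 1 in Nkg7 and 2 at each Ncr1 start, and none in the others. Over all 32851 promoter entries of the same length, 29.5% held AGGAAG, 14% held TGTGGT and 12.4% held TATAAA. RefSeq starts were matched for 9 of the 10 genes, and Cd4 had no entry. The bases shortly after the start were found in an annotated transcript for Cd3d, Cd3g and both Lck starts, but not for Cd3e and Prf1. The Cd3e and Prf1 windows also reach a few bases past the annotated start of the gene (45009627 and 61297833). A match is a run of letters only, and binding was not measured.

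The libraries held between 38956484 and 53189198 estimated counts each. Levels below are CPM, counts scaled to a common library size by edgeR's TMM method. Its factors ran between 1.28 and 1.42 in the 0 hr libraries and between 0.723 and 0.766 in the 48 hr libraries. Levels and fold changes over time therefore depend on this scaling. As a check of the B cell label, 10 B cell genes summed to between 6258 and 11360.0 CPM per library, against 39.7 to 145 CPM for the 10 T and NK markers. Chd4, which checks the KO label, was at 51.3, 38.8 and 74.7 CPM in the KO 48 hr libraries, against 102, 96.1 and 123 CPM in the WT 48 hr libraries (log2 fold change -0.96, SE 0.22, adjusted p = 0.0383 by edgeR's quasi-likelihood test). At 0 hr Chd4 averaged 87.8 ± 15.3 CPM in the KO libraries and 86.8 ± 16.5 CPM in the WT libraries (SD, n = 3 each), with a log2 fold change of 0.02 (adjusted p = 0.993, edgeR), so the counts of all exons did not separate the labels there, and KO and WT below mean the libraries labelled so. The 48 hr difference of Chd4 lost its call without any 1 of WT 0 hr replicates 1 and 3 (adjusted p = 0.055 and 0.06), the WT 48 hr replicates 7, 8 and 9 (0.096, 0.076 and 0.12) or KO 48 hr replicates 10 and 11 (0.16 and 0.13), by edgeR. Xist, transcribed from the inactive X chromosome of females, was between 0.856 and 1.59 CPM in all KO libraries and between 75.4 and 293 CPM in all WT libraries, so genotype and this sex difference cannot be told apart in any KO against WT comparison. KO replicates 6 and 12 lay nearest to WT: their root mean square log2 distance over all tested genes from the WT mean of the same time was 0.367 and 0.347, against 0.464 and 0.473 for KO 0 hr replicates 4 and 5 and 0.453 and 0.511 for KO 48 hr replicates 10 and 11.

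The 3 CD3 genes fell at 48 hr in both genotypes, and none of them differed between KO and WT by the test at either time. Cd3d encodes CD3 delta, which pairs with epsilon in the receptor complex. Cd3d was at 0.838, 0.633 and 0.752 CPM in the KO 48 hr libraries and at 4.80, 3.37 and 2.94 CPM in the KO 0 hr libraries. In WT, Cd3d stood at 0.876, 1.19 and 0.895 CPM after 48 hr and, before culture, 4.14, 2.45 and 3.15 CPM. No 48 hr library reached the lowest 0 hr library of its genotype. The log2 fold change at 48 hr was -2.32 in KO (SE 0.30, adjusted p = 1.2e-05) and -1.72 in WT (SE 0.29, adjusted p = 1.4e-04; edgeR quasi-likelihood test with Benjamini-Hochberg adjustment over all 19125 genes, here and below). At 48 hr all KO values of Cd3d lay below all WT values, and that log2 difference of -0.41 did not pass (adjusted p = 0.614, edgeR).

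Cd3e, the epsilon chain shared by both CD3 dimers, was left with few counts at 48 hr. Cd3e was at 0.0493, 0.528 and 0 CPM in the KO 48 hr libraries and at 4.86, 3.79 and 0.647 CPM in the KO 0 hr libraries. In WT, Cd3e stood at 0.0258, 0.0540 and 0.154 CPM after 48 hr and, before culture, 1.69, 0.969 and 1.18 CPM. KO replicate 12 had 0 counts of Cd3e, for which 3 counts would have been 0.0778 CPM, and KO replicate 11 alone held 20 of the 22 counts of its group. Over time Cd3e fell by 4.01 on the log2 scale in KO (adjusted p = 0.00178, edgeR) and by 3.99 in WT (adjusted p = 0.00366, edgeR). The KO value became -6.84 with KO replicate 11 left out and -3.42 with KO replicate 12 left out, and the WT value became -4.90 with WT replicate 9 left out. At 0 hr KO replicates 4 and 5 lay above all WT libraries and KO replicate 6 below them, and the KO against WT log2 fold change of 1.27 did not pass (95% interval -0.41 to 2.96, adjusted p = 0.649, edgeR).

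Cd3g, the gamma chain, followed the same layout. Cd3g was at 0.0985, 0.237 and 0.156 CPM in the KO 48 hr libraries and at 3.11, 2.74 and 0.573 CPM in the KO 0 hr libraries. In WT, Cd3g stood at 0.361, 0.108 and 0.0512 CPM after 48 hr and, before culture, 0.878, 1.27 and 1.35 CPM. KO replicates 4 and 5 were the highest 0 hr libraries and KO replicate 6 the lowest. The fall at 48 hr was 3.69 on the log2 scale in KO (adjusted p = 3.2e-04, edgeR) and 2.73 in WT (adjusted p = 0.00275, edgeR), or -3.83 as a log2 fold change in WT without WT replicate 7. Differences between KO and WT were -0.09 at 48 hr and 0.87 at 0 hr on the log2 scale, and neither passed (adjusted p = 0.986 and 0.687, edgeR). In bulk RNA, fewer cells of a type and less RNA per cell cannot be told apart.

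**Figure D1:**
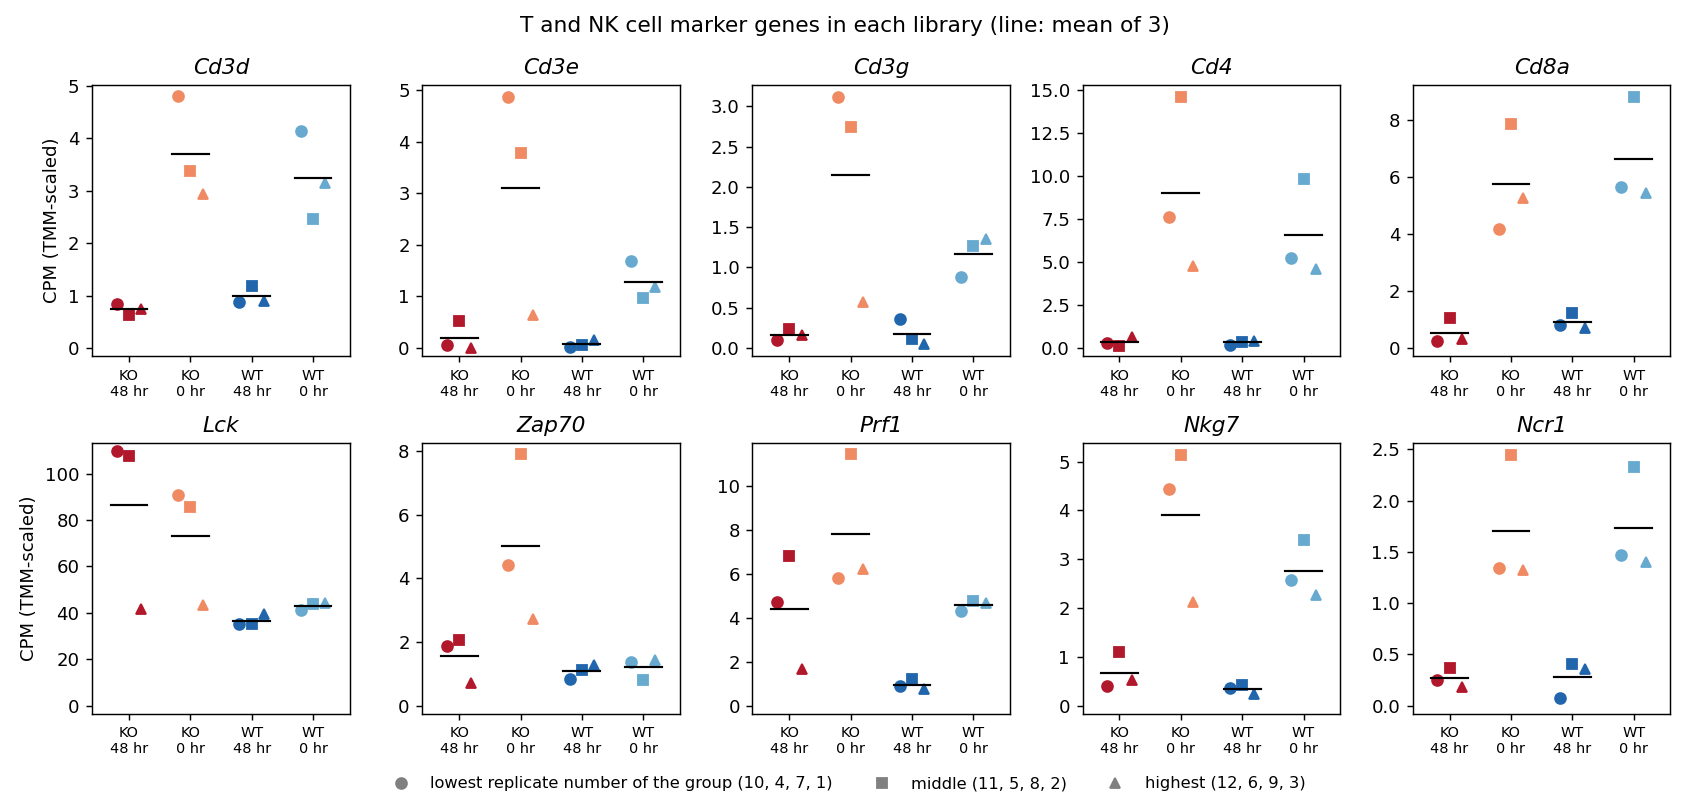
Level of each of the 10 markers in CPM (vertical axes, TMM-scaled, each panel with its own range) in the 12 libraries, grouped as KO 48 hr, KO 0 hr, WT 48 hr and WT 0 hr; each symbol is 1 library and the line is the mean of 3. Cd3d, Cd3e, Cd3g, Cd4, Cd8a, Nkg7 and Ncr1 are lower in every 48 hr library than in any 0 hr library, while in Lck the KO libraries separate, with replicates 12 and 6 at 41.9 and 43.6 CPM and the other KO libraries between 85.7 and 110 CPM.

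Both coreceptor genes fell strongly over the culture, and neither differed between genotypes by the test. Cd4 encodes the coreceptor for MHC class II, which is found on helper T cells and, in the mouse spleen, on some dendritic cells. Cd4 was at 0.271, 0.132 and 0.622 CPM in the KO 48 hr libraries and at 7.63, 14.6 and 4.78 CPM in the KO 0 hr libraries. WT levels of Cd4 were 0.180, 0.351 and 0.435 CPM after 48 hr and, before culture, 5.23, 9.82 and 4.62 CPM. KO replicate 5 and WT replicate 2 were the highest of their groups. The fall of Cd4 was 4.71 on the log2 scale in KO (SE 0.58, adjusted p = 6.2e-06) and 4.34 in WT (SE 0.57, adjusted p = 1.3e-05; both edgeR). Without KO replicate 12, the log2 fold change of Cd4 in KO was -5.45. Among the 10 genes Cd4 had the lowest log2 fold change in both genotypes, but Cd3e was lower in KO without KO replicate 11 (-6.84) and in WT without WT replicate 9 (-4.90). The KO over WT difference of Cd4 was 0.09 at 48 hr (95% interval -1.26 to 1.43) and 0.46 at 0 hr (-0.53 to 1.45) on the log2 scale.

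Cd8a encodes the alpha chain of the coreceptor for MHC class I, carried by cytotoxic T cells and by some dendritic cells. Cd8a was at 0.246, 1.06 and 0.311 CPM in the KO 48 hr libraries and at 4.18, 7.87 and 5.26 CPM in the KO 0 hr libraries. In WT, Cd8a stood at 0.824, 1.24 and 0.716 CPM after 48 hr and, before culture, 5.67, 8.82 and 5.45 CPM. The highest 0 hr libraries were again KO replicate 5 and WT replicate 2. At 48 hr Cd8a was lower by 3.43 on the log2 scale in KO (adjusted p = 2.6e-05, edgeR), or -4.41 as a log2 fold change without KO replicate 11, and by 2.84 in WT (adjusted p = 9.0e-05, edgeR). KO and WT overlapped at both times, and the KO over WT differences of -0.79 (95% interval -1.84 to 0.26) at 48 hr and -0.20 (-1.10 to 0.69) at 0 hr did not pass. The 48 hr difference of Cd8a was -1.78 without KO replicate 11 and -0.44 without KO replicate 10.

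Of the 3 cytotoxic and NK genes, Nkg7 and Ncr1 fell at 48 hr in both genotypes and Prf1 fell in WT. Ncr1 encodes NKp46, an activating receptor of NK cells and some innate lymphoid cells. Ncr1 was at 0.246, 0.369 and 0.182 CPM in the KO 48 hr libraries and at 1.35, 2.45 and 1.32 CPM in the KO 0 hr libraries. In WT, Ncr1 stood at 0.0773, 0.405 and 0.358 CPM after 48 hr and, before culture, 1.47, 2.33 and 1.41 CPM. Its fall was 2.67 on the log2 scale in KO (adjusted p = 3.2e-04, edgeR) and 2.62 in WT (adjusted p = 3.4e-04, edgeR). The genotypes overlapped at both times, with KO over WT differences of -0.07 (95% interval -1.24 to 1.09) at 48 hr and -0.02 (-0.96 to 0.92) at 0 hr.

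Nkg7 encodes a membrane protein of cytotoxic granules. Nkg7 was at 0.394, 1.11 and 0.519 CPM in the KO 48 hr libraries and at 4.44, 5.15 and 2.13 CPM in the KO 0 hr libraries. In WT, Nkg7 stood at 0.361, 0.432 and 0.230 CPM after 48 hr and, before culture, 2.58, 3.40 and 2.27 CPM. KO replicate 11 stood above the other 48 hr libraries, and KO replicates 4 and 5 stood above all other 0 hr libraries. Stimulated cells were lower by 2.53 on the log2 scale in KO (adjusted p = 1.4e-04, edgeR), or -3.14 as a log2 fold change without KO replicate 11, and by 3.00 in WT (adjusted p = 4.8e-05, edgeR). The KO over WT difference at 48 hr, 0.98 (95% interval -0.03 to 1.98), did not pass (adjusted p = 0.364, edgeR). It was 0.37 without KO replicate 11.

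Prf1, which encodes perforin, the pore-forming protein of cytotoxic granules, was the only member called between genotypes at 48 hr. Prf1 was at 4.73, 6.81 and 1.69 CPM in the KO 48 hr libraries and at 5.81, 11.5 and 6.25 CPM in the KO 0 hr libraries. In WT, Prf1 stood at 0.901, 1.22 and 0.768 CPM after 48 hr and, before culture, 4.34, 4.76 and 4.67 CPM. Every KO library lay above every WT library at both times, KO replicate 12 being the nearest to WT at 48 hr. At 48 hr the KO mean was 4.41 ± 2.58 CPM and the WT mean 0.961 ± 0.230 CPM (SD, n = 3 each), which in the edgeR fit is 2.20 on the log2 scale (SE 0.44, adjusted p = 0.0218, 95% interval 1.25 to 3.14). The call was lost when WT replicate 7, 8 or 9 (adjusted p = 0.12, 0.079 and 0.12) or KO replicate 10 or 11 (0.072 and 0.13) was left out, by edgeR. At 0 hr the difference was 0.77 on the log2 scale and did not pass (adjusted p = 0.542, edgeR). Over time Prf1 fell by 2.25 in WT (SE 0.44, adjusted p = 4.0e-04, edgeR). In KO the change of Prf1 was -0.83 (SE 0.40, adjusted p = 0.0784, edgeR), and it passed without KO replicate 11 (-1.34, adjusted p = 0.016, edgeR). The difference between the 2 time courses was 1.42 (SE 0.59), with an unadjusted p of 0.030 and an adjusted p of 0.518 by edgeR, which did not pass.

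Lck encodes the Src family kinase at the head of T cell receptor signalling. Lck was at 109.7, 108 and 41.9 CPM in the KO 48 hr libraries and at 90.8, 85.7 and 43.6 CPM in the KO 0 hr libraries. WT levels of Lck were 35.3, 35.2 and 39.4 CPM after 48 hr and, before culture, 41.1, 43.8 and 44.2 CPM. The 6 WT libraries spanned 35.2 to 44.2 CPM, whereas the KO libraries lay at separate levels, with replicates 12 and 6 beside WT and the other 4 at 85.7 CPM or more. At 48 hr all KO values lay above all WT values, by 1.24 on the log2 scale (SE 0.31, 95% interval 0.57 to 1.91), a difference that missed the threshold (adjusted p = 0.0618, edgeR). It passed when KO replicate 12 (1.57, adjusted p = 0.0015) or KO replicate 6 (1.24, adjusted p = 0.027) was set aside, by edgeR. The 0 hr difference was 0.77 (adjusted p = 0.363, edgeR). With both replicate 6 and replicate 12 left out, a choice made after seeing the data, Lck passed at 48 hr (1.57, adjusted p = 5.5e-06) and at 0 hr (1.03, adjusted p = 0.00018), by edgeR, and that fit sets aside the libraries in which Lck was near WT. Stimulation moved Lck by 0.24 in KO and -0.23 in WT on the log2 scale, neither of which passed (adjusted p = 0.497 and 0.503, edgeR). Without KO 48 hr replicate 12 the KO change was 0.57 and passed (adjusted p = 0.038, edgeR), while with upper-quartile scaling it was -0.40 and in WT -0.91 (adjusted p = 0.27 and 0.02, edgeR), so no direction over time is given for Lck in KO. In WT the change was negative under every alternative run at gene level, and besides upper-quartile scaling it passed with only the libraries of that comparison (-0.26, adjusted p = 0.033) and without both KO replicates 6 and 12 (-0.23, adjusted p = 0.049), by edgeR. The median over all genes tested in WT was lower than Lck in the main fit (-0.39) and in these 3 alternatives (-1.06, -0.31 and -0.42). Relative to that median, Lck did not fall.

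The table lists 5 transcripts of Lck, among which the counting program divided reads. The transcript uc008uxj.2 took most of the KO excess at 48 hr: its mean was 60.8 CPM in KO 48 hr libraries (range 20.3 to 85.0) and 32.1 CPM in KO 0 hr libraries, against 21.4 CPM in WT 48 hr libraries and 21.7 CPM in WT 0 hr libraries. It held 48.5 to 79.0% of Lck in the KO 48 hr libraries and 57.8 to 58.7% in the WT 48 hr libraries. The transcript uc008uxk.1 had means of 0.546 CPM in KO 48 hr libraries and 5.94 CPM in KO 0 hr libraries, against 0.320 CPM in WT 48 hr libraries and 3.34 CPM in WT 0 hr libraries. It fell at 48 hr in KO (log2 fold change -3.43, adjusted p = 0.000513) and in WT (-3.33, adjusted p = 0.00063), with each transcript tested as its own feature by edgeR, and uc008uxi.2 fell in WT (-1.06, adjusted p = 0.0132, edgeR). No Lck transcript passed between KO and WT at either time. These identifiers were not matched to the promoter starts printed above.

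**Figure D2:**
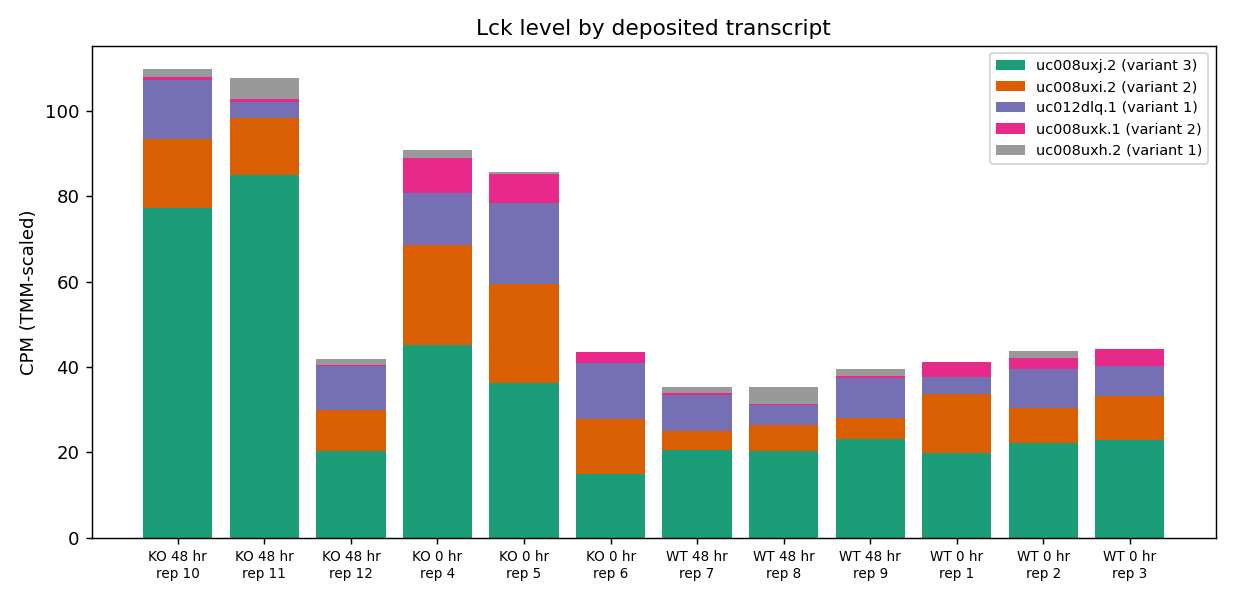
Lck level in CPM (vertical axis, stacked by the 5 deposited transcripts) in each of the 12 libraries (horizontal axis, KO 48 hr, KO 0 hr, WT 48 hr, WT 0 hr); each segment is 1 transcript's estimated count scaled to CPM. KO replicates 12 and 6 stand at the height of the WT libraries. The largest segment is uc008uxj.2 in each of the 12 libraries, with its highest shares in KO replicates 10 and 11 (70.3 and 79.0% of Lck).

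Zap70 encodes the Syk family kinase that binds phosphorylated CD3 chains, and was the only member called between genotypes at 0 hr. Zap70 was at 1.87, 2.06 and 0.726 CPM in the KO 48 hr libraries and at 4.42, 7.90 and 2.72 CPM in the KO 0 hr libraries. WT levels of Zap70 were 0.850, 1.13 and 1.28 CPM after 48 hr and, before culture, 1.39, 0.810 and 1.44 CPM. At 0 hr the lowest KO library, replicate 6, was above the highest WT library, and at 48 hr the genotypes overlapped, with KO replicate 12 the lowest of the 6 libraries. The 0 hr means were 5.02 ± 2.64 CPM in KO and 1.21 ± 0.349 CPM in WT (SD, n = 3 each), which in the edgeR fit is 2.04 on the log2 scale (SE 0.44, adjusted p = 0.0412, 95% interval 1.10 to 2.99). The call was held in 2 of 12 fits that left out 1 library, those without KO replicate 6 or 12. It was lost without WT replicate 1, 2 or 3 (adjusted p = 0.14, 0.16 and 0.14), KO replicate 4 or 5 (0.068 and 0.14), WT replicate 7, 8 or 9 (0.07, 0.073 and 0.074) or KO replicate 10 or 11 (0.063 and 0.053), by edgeR. Over all 12 of these fits the log2 value lay between 1.55 and 2.34. Over time Zap70 fell in KO (-1.69, SE 0.44, adjusted p = 0.00355, edgeR), while in WT it was -0.16 (SE 0.45, adjusted p = 0.756, edgeR). The difference between the 2 time courses, -1.53 with an unadjusted p of 0.028, did not pass the adjustment (adjusted p = 0.508, edgeR).

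Counted together, 8 of the 10 markers fell at 48 hr in KO and 8 fell in WT, and none rose in either. Across all 19125 genes 70.7% were called in KO (37.7% lower, 33% higher) and 73.9% in WT (40.9% lower, 33% higher). The 7 CD3, coreceptor, Nkg7 and Ncr1 genes were called in both, Zap70 in KO and Prf1 in WT. The median log2 fold change of the 10 was -2.60 in KO and -2.68 in WT, beside -0.30 and -0.39 over all genes tested. With upper-quartile scaling the medians of all genes moved to -0.93 in KO and -1.06 in WT, and the 10 markers' medians relative to them were -2.31 in KO and -2.28 in WT, close to -2.30 and -2.29 with TMM. The groups did not overlap for 8 markers in KO and 9 in WT, all lower at 48 hr, where 39.5% and 44.9% of all genes were lower without overlap and 33% and 34.9% higher. The 2 time courses differed for 0 of the 10 markers (0.115% of all genes called by edgeR, 0.068% higher and 0.0471% lower). For 2 markers, Prf1 and Zap70, the unadjusted p was under 0.05 by edgeR. DESeq2 called 0 of the 10 markers, and 1.16% of all genes.

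Between genotypes, 1 marker was higher in KO at 48 hr (Prf1) and 1 at 0 hr (Zap70), where 1.47% and 0.68% of all genes were called higher, and none was lower (0.544% and 0.429%). In either direction 2.02% of all genes were called at 48 hr and 1.11% at 0 hr. The median of the 10 was 0.30 at 48 hr and 0.64 at 0 hr on the log2 scale, beside 0.01 and 0 over all genes. These medians depended on single libraries: the 48 hr median was -0.08 without KO replicate 11, and the 0 hr median was 0.33 without KO replicate 5. Without overlap, Lck and Prf1 were higher and Cd3d lower at 48 hr (10.7% and 9.53% of all genes), and Zap70 and Prf1 were higher at 0 hr (7.02%) and none lower (7.92%). By DESeq2, Zap70 was called at 0 hr, and Prf1 and Lck (1.18, adjusted p = 0.0063) at 48 hr. DESeq2 called more of all genes than edgeR, 3.4% at 0 hr and 5.54% at 48 hr. The comparisons over time and between genotypes share libraries.

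**Figure D3:**
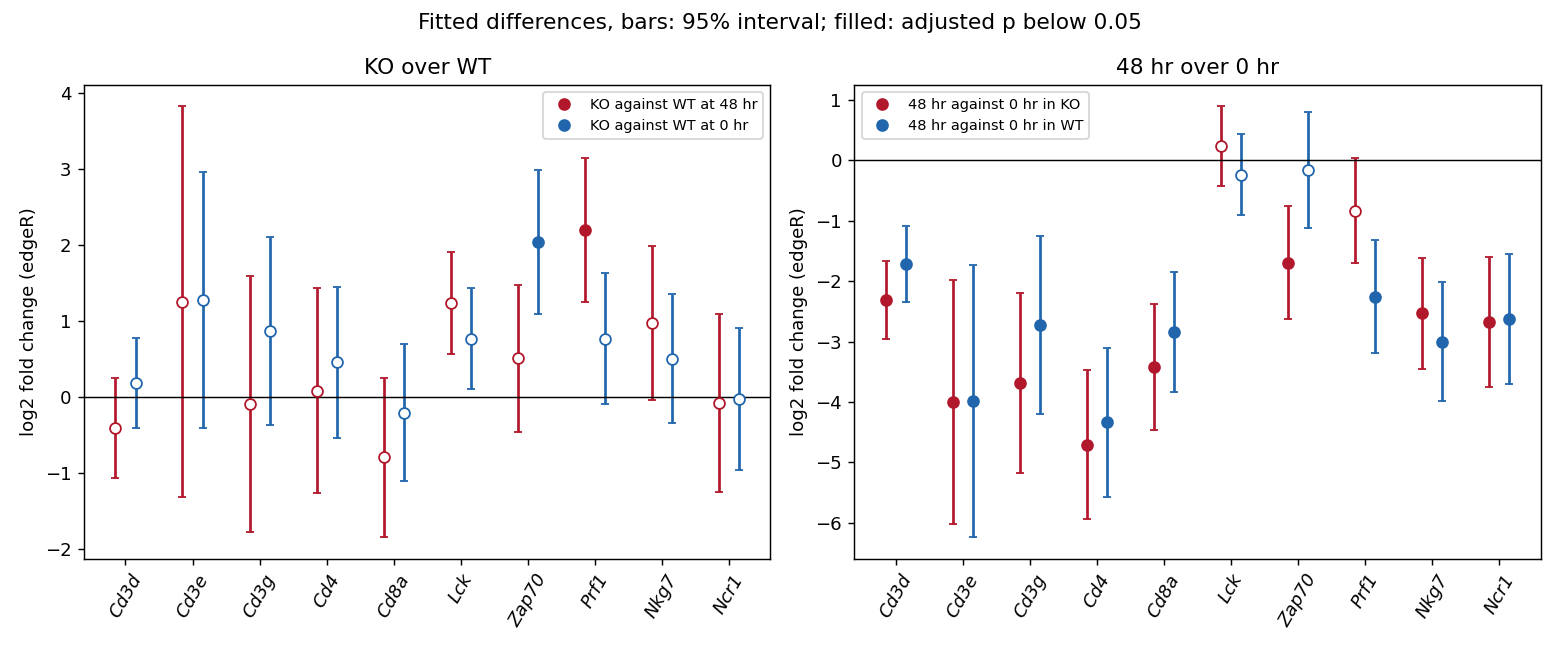
Log2 fold changes of the 10 markers fitted by edgeR (vertical axes), for KO over WT at 48 hr and 0 hr (left) and for 48 hr over 0 hr in KO and WT (right); bars are 95% intervals and filled points have an adjusted p below 0.05. The filled points on the left are Prf1 at 48 hr (2.20) and Zap70 at 0 hr (2.04), and on the right only Lck, Zap70 in WT and Prf1 in KO are open.

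Set per kilobase of principal transcript, Lck was the highest of the 10 in all groups, at 39.6 ± 17.7 CPM per kb in KO 48 hr libraries and 33.6 ± 11.9 in KO 0 hr libraries, against 16.8 in WT 48 hr libraries and 19.7 in WT 0 hr libraries (means of 3, SD). At 0 hr the other 9 lay between 1.17 (Ncr1) and 4.43 (Nkg7) CPM per kb in KO and between 0.540 (Zap70) and 3.12 (Nkg7) in WT. Zap70 was thus sixth of the 10 in KO and last in WT at 0 hr. At 48 hr Prf1 was next after Lck in KO, at 1.78 ± 1.04 CPM per kb, and Cd3d was next in WT, at 0.610 ± 0.108. Cd4 was last in KO at 48 hr, at 0.110 ± 0.0813, and Cd3e last in WT, at 0.0532 ± 0.0459. Neighbours in order below Lck had overlapping ranges in KO at 0 hr and in WT at 48 hr, and in KO at 48 hr all but Cd3d and Ncr1 did. In WT at 0 hr Prf1 stood apart from Ncr1 below it, and Cd3e from Zap70.

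As a reading of T cell RNA against B cell RNA, the mean of the CD3 genes per kb was set against the mean of Cd79a and Cd79b, which encode the signalling chains of the B cell receptor. The CD3 level was 0.0290, 0.0392 and 0.0225% of the CD79 level in the KO 48 hr libraries and 0.205, 0.192 and 0.0562% in the KO 0 hr libraries. In WT it was 0.0319, 0.0283 and 0.0266% at 48 hr and 0.105, 0.0706 and 0.105% at 0 hr. At 0 hr KO replicate 6 was below all WT libraries and KO replicates 4 and 5 were above them. These are shares of RNA and not of cells, and Cd79a itself was lower at 48 hr by 1.60 in KO and 1.49 in WT on the log2 scale.

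Most of 24 measured other T cell genes were lower after culture. At 48 hr, 17 were lower and 3 higher in KO, and 20 were lower and 2 higher in WT, beside 37.7% lower and 33% higher of all genes in KO and 40.9% and 33% in WT. The list's medians were -1.66 in KO and -2.11 in WT on the log2 scale. Icos, a costimulatory receptor, fell by 4.93 on the log2 scale in KO (-7.02 without KO 48 hr replicate 11) and by 2.44 in WT (adjusted p = 1.9e-05 and 0.00159, edgeR). Cd6, a scavenger receptor family protein of T cells, had 0 counts in the 3 WT 48 hr libraries against 107 in the WT 0 hr libraries. In KO, Cd6 fell by 1.59 on the log2 scale (adjusted p = 0.0263, edgeR). Thy1 and Ctla4 went the other way: Thy1, a surface protein of T cells, rose by 4.96 in KO (6.72 without KO 0 hr replicate 4) and 5.07 in WT (5.82 without WT 0 hr replicate 1), and Ctla4, an inhibitory receptor, rose by 4.63 in KO and 5.29 in WT (5.89 without WT 0 hr replicate 3), each with an adjusted p of at most 1.4e-05 by edgeR.

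Between genotypes, none of these 24 was called at 0 hr and Cd6 was called higher in KO at 48 hr, with medians of 0.51 at 48 hr and 0.30 at 0 hr on the log2 scale. Of all genes, 1.11% were called at 0 hr and 2.02% at 48 hr. Cd6 had 14, 26 and 17 counts in KO replicates 10, 11 and 12 and none in WT, at least 18.7-fold higher in KO when WT is set at 3 counts for the whole group (adjusted p = 0.0126, edgeR). The call was lost without WT 48 hr replicate 7, 8 or 9 (adjusted p = 0.063, 0.059 and 0.06) or KO replicate 11 (0.056), by edgeR. Cd5, named here after its values were seen, is on T cells and on B-1a cells. It was at 0.419, 0.290 and 0.571 CPM in KO 48 hr libraries and 3.87, 5.22 and 1.75 CPM in KO 0 hr libraries, against 0.0258, 0.135 and 0.0256 CPM in WT 48 hr libraries and 0.755, 1.46 and 1.13 CPM in WT 0 hr libraries. KO and WT did not overlap at either time (10.7% of all genes were higher in KO without overlap at 48 hr, 7.02% at 0 hr). Neither difference of Cd5 passed (adjusted p = 0.0522 at 48 hr and 0.110 at 0 hr, edgeR). Tbx21, of the NK and cytotoxic list below and also named after its values were seen, was lower in KO without overlap at both times. Its log2 differences were -1.42 at 48 hr and -1.46 at 0 hr, and neither passed (adjusted p = 0.0672 and 0.05475, edgeR). Of all genes, 9.53% and 7.92% were lower without overlap.

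Of 20 other NK and cytotoxic genes, 10 were lower and 2 higher at 48 hr in KO, 13 were lower and 4 higher in WT, and none was called between genotypes at either time. Only 2.02% of all genes were called between genotypes at 48 hr and 1.11% at 0 hr. In KO, 12 of 20 called is a smaller share than the 70.7% of all genes called, and 10 of 20 lower stands beside 37.7% of all genes; in WT, 13 of 20 lower stands beside 40.9%. The medians of the list over time were -1.33 in KO and -1.83 in WT on the log2 scale. Klrd1, which encodes the NK receptor chain CD94, fell by 4.57 on the log2 scale in KO and by 4.09 in WT (adjusted p = 3.3e-05 and 7.8e-05, edgeR). Cd226, an adhesion receptor that activates killing, fell by 4.35 in KO and 5.55 in WT (-6.38 without WT 48 hr replicate 7). Gzmb, a granule serine protease, rose by 4.85 in KO and 4.54 in WT (5.27 without WT 0 hr replicate 1), and Serpinb9b, a serpin of the granzyme inhibitor family, rose by 5.50 in KO and 4.01 in WT. In KO, Serpinb9b was 6.33 with replicate 4 left out and 4.91 with replicate 5 left out. Among 20 antigen receptor signalling genes shared by lymphocytes, Sla2 (an adaptor that dampens receptor signals) was higher and Syk lower in KO at 0 hr, and Fyn, a Src family kinase, was higher in KO at 48 hr. Each was the only gene of the 20 called in its direction at that time. Beside them, 0.68% of all genes were called higher and 0.429% lower at 0 hr, and 1.47% were called higher at 48 hr. Sla2 was 2.19 (adjusted p = 0.00914), lost without WT 0 hr replicate 1 or 3 (0.055 and 0.069) or with only the 6 libraries compared (0.059). Fyn was 0.67 (adjusted p = 0.0182), lost without WT 48 hr replicate 7, 8 or 9 (0.078, 0.13 and 0.084) or KO 48 hr replicate 10 or 11 (0.06 and 0.057). Syk was -0.56 (adjusted p = 0.0360, edgeR for all 3 genes). Syk was held in 3 of 12 such fits and lost without WT 0 hr replicate 1, 2 or 3 (adjusted p = 0.096, 0.086 and 0.14), KO 0 hr replicate 4 or 5 (0.12 and 0.055), WT 48 hr replicate 7 or 8 (0.074 and 0.057) or KO 48 hr replicate 10 or 11 (0.076 and 0.064), by edgeR, and with only the 6 libraries compared (0.19).

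Markers of other cell types were also lower at 48 hr. The summed level of 14 myeloid and dendritic cell genes was 39.2, 56.3 and 34.9 CPM in the KO 48 hr libraries and 219, 446 and 155 CPM in the KO 0 hr libraries, against 27.1, 27.9 and 32.8 CPM in the WT 48 hr libraries and 149.9, 291 and 157 CPM in the WT 0 hr libraries. The sum of 9 erythroid and platelet genes was 15.8, 8.81 and 6.95 CPM in the KO 48 hr libraries and 3419, 354 and 882 CPM in the KO 0 hr libraries, against 13.6, 15.2 and 12.3 CPM in the WT 48 hr libraries and 924, 952 and 639 CPM in the WT 0 hr libraries. Some defining markers were at 0 counts after culture: Elane in the KO 48 hr and WT 48 hr libraries, Clec9a in the KO 48 hr libraries and Mpo in the WT 48 hr libraries. Elane and Mpo were uneven before culture. At 0 hr Elane ranged from 0.0294 to 3.28 CPM in KO and 0.439 to 2.65 CPM in WT. Mpo ranged from 0 to 11.7 CPM in KO and 0.545 to 8.50 CPM in WT. Of the myeloid and dendritic cell genes 13 of 14 were called lower at 48 hr in both genotypes, as were 9 of 9 erythroid and platelet genes (37.7% of all genes in KO and 40.9% in WT). None of either list was called between genotypes, where 2.02% of all genes were called at 48 hr and 1.11% at 0 hr. With no filter on low counts Elane and Mpo lost their calls (adjusted p = 0.068 and 0.083 in KO, 0.074 and 0.081 in WT), as did Mpo in KO without KO 0 hr replicate 5 (0.059), by edgeR. Replicates 5 (KO) and 2 (WT), the highest 0 hr libraries of their genotype for Cd4, Cd8a and Ncr1, were also the highest for the myeloid sum, while replicate 4 (KO), the highest for Cd3d, Cd3e and Cd3g, was the highest for the erythroid sum. In WT, the CD3 sum was highest in replicate 1 and lowest in replicate 2, which had the highest erythroid sum. The 10 B cell genes summed to 6258, 6733 and 7205 CPM in the KO 48 hr libraries and 8901, 8571 and 11360.0 CPM in the KO 0 hr libraries, against 6925, 7240.0 and 6732 CPM in the WT 48 hr libraries and 8735, 10160.0 and 8281 CPM in the WT 0 hr libraries, with 6 called lower and 1 higher over time in each genotype. The part of these other cells in the marker changes was not tested.

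The summed CD3 level was 0.985, 1.40 and 0.908 CPM in KO 48 hr libraries and 12.8, 9.91 and 4.16 CPM in KO 0 hr libraries, against 1.26, 1.35 and 1.10 CPM in WT 48 hr libraries and 6.70, 4.69 and 5.68 CPM in WT 0 hr libraries. The summed Prf1, Nkg7 and Ncr1 level was 5.37, 8.28 and 2.39 CPM in KO 48 hr libraries and 11.6, 19.1 and 9.70 CPM in KO 0 hr libraries, against 1.34, 2.05 and 1.36 CPM in WT 48 hr libraries and 8.39, 10.5 and 8.35 CPM in WT 0 hr libraries. In the CD3 sum the genotypes overlapped at both times. In the cytotoxic sum every KO 48 hr library lay above the WT 48 hr libraries, where Prf1 made up most of the KO total.

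**Figure D4:**
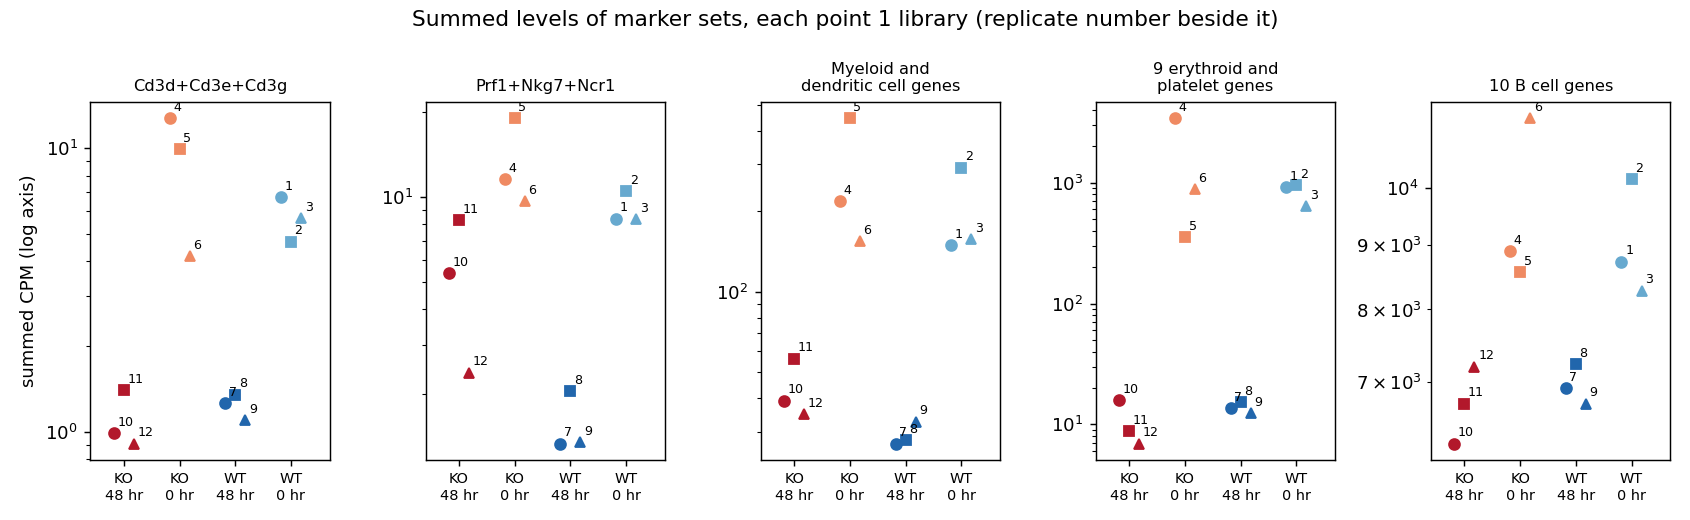
Summed CPM (vertical log axes) of the CD3 genes, of Prf1, Nkg7 and Ncr1, of 14 myeloid and dendritic cell genes, of 9 erythroid and platelet genes and of 10 B cell genes; each point is 1 library with its replicate number, in the order KO 48 hr, KO 0 hr, WT 48 hr, WT 0 hr. The first 4 sets are lower in all 48 hr libraries than in all 0 hr libraries, and KO replicate 5 is highest in the cytotoxic and myeloid panels.

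The genes most like the CD3 sum over the 12 libraries, by Pearson correlation of log2(CPM + 0.5), were Cbfa2t3 (r = 0.986), Afap1 (0.983), Siglech (0.983), Rab3il1 (0.982) and Icos (0.980). With the mean of each group taken out, their r was between 0.828 and 0.871. For the sum of Prf1, Nkg7 and Ncr1 they were Tsc22d1 (r = 0.982), Fcer1g (0.975), Slpi (0.972), Kit (0.970) and Cyp4f16 (0.969), or 0.854 to 0.962 with group means taken out. Siglech marks plasmacytoid dendritic cells, and Fcer1g encodes a signalling chain used by NK and myeloid receptors. These values describe the 12 libraries, which share the 48 hr change and the library composition. The genes were picked as the highest r over these same libraries, so the r with group means taken out is no separate check.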

How the data were processed

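RNA of mouse splenic B cells was sequenced in 12 libraries; per the labels' protocols, cDNA was amplified with the SMART-Seq v4 kit, which does not mark strand. The submitters' processing notes name bcl2fastq 2.20.0.422, Trimmomatic 0.36, Salmon 0.8.2, DESeq2 1.14.1 and build mm10. The authors deposited one table of estimated counts per transcript (63759 rows), whole numbers that were not normalized. Salmon divides reads among similar transcripts, so transcript values are less certain than gene sums. Names were trimmed (344 had trailing spaces) and counts summed per name. Totals were 38956484 to 53189198. All samples entered 1 edgeR 4.0.16 fit (R 4.3.3, TMM, filterByExpr, robust quasi-likelihood) of 4 groups, with Benjamini-Hochberg adjusted p below 0.05 called. The recovery of changes was tested on simulated data in which most genes were unchanged. That setting differs from the comparisons over time, where most genes were called, so it does not test those comparisons. Levels are CPM. Standard errors are from the fitted value and F. The pseudocount for likeness was 0.5 CPM. DESeq2 1.42.0, other scalings and filters, a fit of only the libraries compared, transcripts as features and leaving out each library were tried. All members were named, plus Chd4, at most 4 called genes of each other list and comparison, and the 5 genes most like each sum. Cd5 and Tbx21 were added after their values were seen. The members and lists were chosen with earlier results of these data known. Transcript lengths and positions are GENCODE M21 (mm10); promoters are RefSeq (GRCm38.p6). All sample columns were mapped.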

Additional observations from a re-analysis of the deposited data

How the results depend on the processing

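The 8 markers called lower at 48 hr in each genotype were called under every alternative run at gene level; leaving out 1 library gave 8 to 9 calls in KO and 8 in WT (without KO 48 hr replicate 11, Prf1 was added), and 0 to 1 called higher in KO. Leaving out 1 library gave 0 to 1 markers higher in KO than WT at 0 hr and 0 to 2 at 48 hr, against 1 each. Otherwise, at 0 hr the count was 0 with only the 6 libraries compared (Zap70 2.06, adjusted p = 0.1, edgeR), 0 with transcripts as features and 2 without both KO replicates 6 and 12, an alternative chosen after seeing the data; at 48 hr it was 2 with DESeq2, 2 without both and 0 with transcripts, and over time in KO 1 rose without both (Lck 0.31, adjusted p = 0.036, edgeR). Of all genes, DESeq2 called 5.54% between genotypes at 48 hr. The fit without both replicates called 6.91% at 48 hr and 3.45% at 0 hr. Prf1 over time in KO passed with upper-quartile scaling (-1.45) and with at least 1 CPM in 3 libraries (-1.02). Directions that turned all belonged to values that did not pass. Leaving out 1 library, KO over WT at 0 hr ranged -0.04 to 0.40 for Cd3d, -0.08 to 0.87 for Cd4, -0.49 to 0.06 for Cd8a, -0.38 to 0.25 for Ncr1 and -0.13 to 0.15 for Chd4; at 48 hr -1.59 to 2.14 for Cd3e, -0.58 to 0.98 for Cd3g, -0.66 to 0.42 for Cd4 and -0.56 to 0.25 for Ncr1; over time -0.02 to 0.57 for Lck in KO and -0.37 to 0.00 for Zap70 in WT; and the difference of time courses -2.87 to 0.86 for Cd3e, -1.46 to 0.10 for Cd3g, -1.12 to 0.16 for Cd4, -0.15 to 0.74 for Nkg7 and -0.55 to 0.30 for Ncr1. Without both replicates, Ncr1 was 0.13 at 0 hr and 0.13 at 48 hr, Cd4 -0.66 at 48 hr, Chd4 -0.02 at 0 hr, and the difference of time courses 0.07 for Cd3e, 0.00 for Ncr1 and -1.42 for Cd4. Upper-quartile scaling turned Chd4 at 0 hr (-0.02) and over time in WT (-0.38), Lck over time in KO (-0.40) and the Cd3e difference of time courses (0.01). The cause was not tested. The low 48 hr counts of Cd3e (22 in KO, 9 in WT) limit what could be seen there. No paired analysis was possible because no replicate number is shared between groups.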
